A study of Mus musculus with 22 samples.

Results

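The genes described here are 10 markers of lipid-associated and infiltrating macrophages, namely Trem2, Gpnmb, Spp1, Cd9, Lgals3, Itgax, Clec7a, Cd68, C5ar1 and Ly6c2, out of 55573 genes counted in whole mouse liver. They were taken by gene symbol from the table of read counts, 1 row for each symbol, and every one of them reached a mean of at least 10 counts over the 22 livers and was tested. The livers came from 3-month-old C57BL/6 mice, 1 library per mouse, in 4 groups: Cre mice on chow (n = 6), Cre mice on a methionine/choline deficient (MCD) diet (n = 5), liver-Flcn-/- mice on chow (n = 5) and liver-Flcn-/- mice on MCD (n = 6). The diets began at 6 weeks of age and lasted 6 weeks. All mice carried the Albumin-Cre transgene, whose promoter is active in hepatocytes. Cre mice had wild-type Flcn alleles, and liver-Flcn-/- mice had floxed Flcn alleles, so that Flcn was deleted in hepatocytes and not by design in macrophages. The libraries held 13751347 to 21144388 counted reads, and levels are in CPM, with library sizes scaled by the TMM method of edgeR.

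Macrophages of the liver are either resident Kupffer cells or descend from blood monocytes that enter injured tissue. In fatty and injured liver, monocyte-derived cells that take up lipid and debris gather around dying hepatocytes and scars and are known as lipid-associated macrophages. Trem2, a surface receptor for lipids and lipoproteins that signals through the adaptor Tyrobp, is their best known marker, together with Gpnmb, Spp1, Cd9 and Lgals3. Itgax, Clec7a, C5ar1 and Ly6c2 are used more often for activated or recruited myeloid cells, and Cd68 for macrophages in general. Several of these genes are also made by other liver cells, for example Spp1 and Cd9 by bile duct cells, and Gpnmb is a known target of the transcription factors TFE3 and TFEB, which move to the nucleus in cells that lack Flcn. In bulk liver RNA, fewer cells of a type and less RNA per cell cannot be told apart.

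Flcn itself, the deleted gene, was the check of the labels. On chow the 6 Cre livers had 26.1 to 40.1 CPM (median 31.7) and the 5 liver-Flcn-/- livers had 24.2, 19.9, 16.7, 19.4 and 21.7 CPM. All liver-Flcn-/- livers lay below all Cre livers on chow, a log2 fold change of -0.63 (SE 0.173) with an adjusted p of 0.0249 from edgeR. The call was lost in 7 of 34 alternatives, among them 3 of the 22 that left out 1 mouse, with an adjusted p of up to 0.244, while the log2 fold change stayed between -0.70 and -0.55. The deletion, as the study describes it, takes out an exon, so reads from the rest of the transcript still count, and the count of the gene is a limited check. On MCD the 5 Cre livers had 31.7, 18.2, 39.8, 32.4 and 23.6 CPM and the 6 liver-Flcn-/- livers had 17.6 to 32.6 CPM (median 26.6). The groups overlapped on MCD, with a log2 fold change of -0.16 (SE 0.17, adjusted p = 0.567), so Flcn counts did not separate the genotypes on that diet. Rragd, a target of TFE3 and TFEB that encodes a Rag GTPase, separated them on both diets. It had 1.5 to 2.59 CPM in Cre livers and 17.2 to 41.7 CPM in liver-Flcn-/- livers on chow, and 3.83 to 9.88 CPM against 45.5 to 74.2 CPM on MCD. Alb, the hepatocyte marker, had a mean of at least 56677 CPM in each group.

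Some libraries stood apart from their groups. In 1 Cre liver on MCD (replicate 3) 12 skeletal muscle genes summed to 3427 CPM, against 1.28 to 165 CPM in the other Cre livers on MCD. Leaving that library out left the number of markers called at 10, 7, 4, 6 and 7 in the 5 comparisons described in the text that follows, as in the full data. The bile duct keratin Krt19 was at 18.2 CPM in 1 Cre liver on chow (replicate 5), where the group's median was 1.75 CPM. Sex is not in the labels, and Xist, the RNA of the inactive X chromosome, was below 100 CPM in 10 of the 22 livers, which were spread over all 4 groups. The 5 chow livers among these 10 are also the 5 chow libraries whose share of uniquely mapped reads is low in the study's mapping statistics, so that those features cannot be told apart on chow.

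The markers rose with MCD in Cre mice, had smaller fold changes in liver-Flcn-/- mice (a difference that passed the test for 7 of 10), and on MCD most of them were lower in liver-Flcn-/- than in Cre mice. In Cre mice all 10 markers rose with MCD in the edgeR test (adjusted p under 0.05), where 57.5% of all 14062 tested genes changed in either direction and 29.3% rose. Their livers on MCD also lay above all chow livers for each of the 10, which held for 15.6% of tested genes. Genes of other cell types moved too, and their part in the marker rises was not tested. In Cre mice 10 of 12 stellate cell, 5 of 11 bile duct, 5 of 6 neutrophil and 5 of 10 dendritic cell genes rose. Of these lists 1 neutrophil and 1 dendritic cell gene fell. All 9 hepatocyte genes fell (median -0.99), and of 11 endothelial genes 2 rose and 5 fell. Without the liver with the skeletal muscle RNA, 9 stellate cell and 4 neutrophil genes rose and 8 hepatocyte genes fell. In liver-Flcn-/- mice 7 markers rose and none fell, against 45.0% of tested genes that changed and 22.5% that rose. Between genotypes on chow 4 markers were higher in liver-Flcn-/- mice and none was lower, against a background of 8.62% (5.52% higher). Between genotypes on MCD 6 markers were lower in liver-Flcn-/- mice and none was higher, against a background of 16.6% (8.53% lower). The diet response itself differed between the genotypes for 7 markers, each time with the smaller response in the knockout, against 8.83% of tested genes with an interaction of genotype and diet (5.54% negative). The median log2 fold change of the 10 markers was 2.82 for MCD in Cre mice, 1.22 for MCD in liver-Flcn-/- mice, 0.83 for genotype on chow, -1.04 for genotype on MCD and -1.71 for the interaction. Over all tested genes the medians lay between -0.03 and 0.03. The comparisons share groups, so these counts are not independent of each other.

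**Figure D1:**
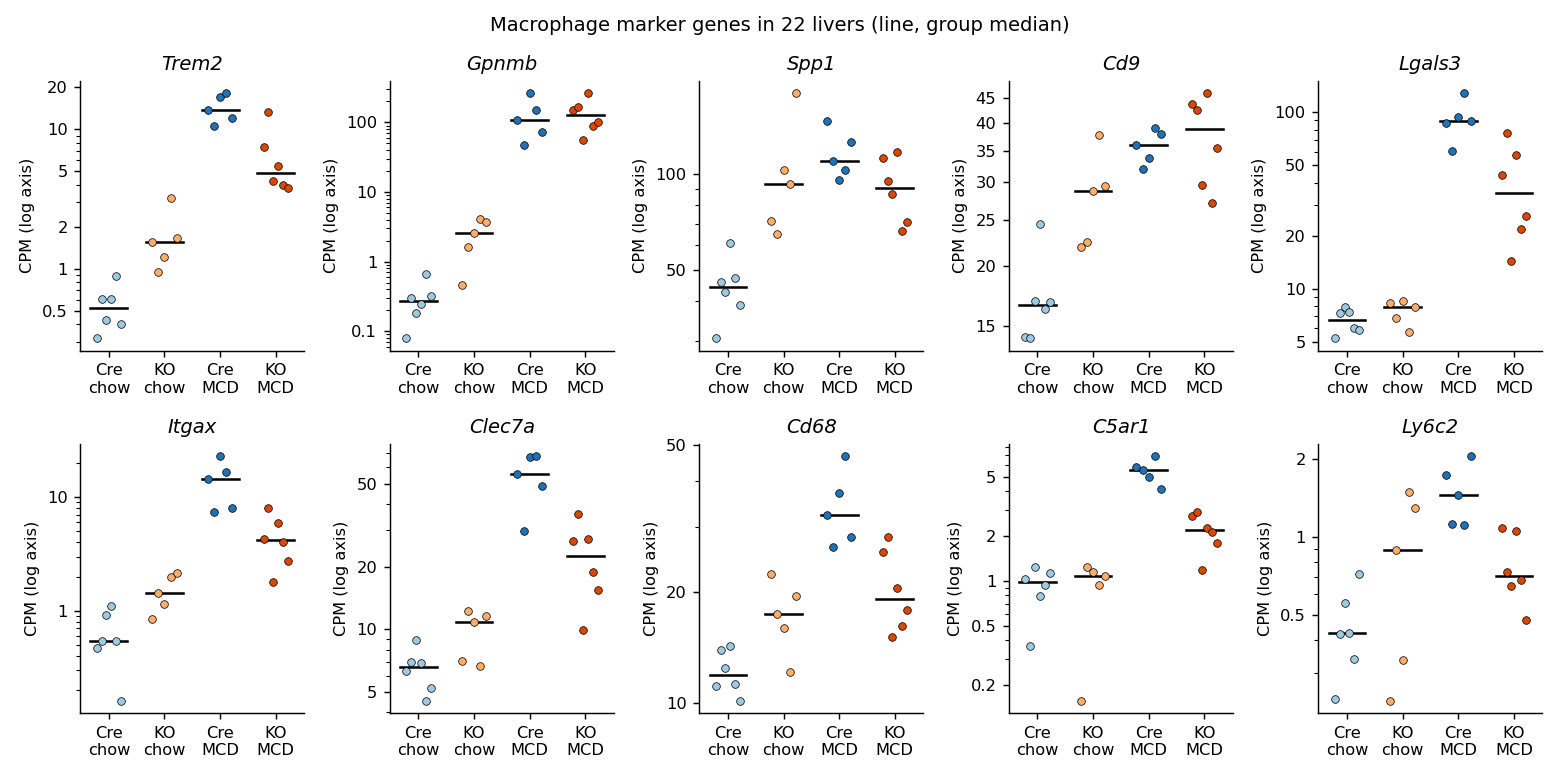
CPM of the 10 markers (log axis) in each of the 22 livers by genotype and diet, where KO stands for liver-Flcn-/- mice, each point is 1 liver and the line is the group median. For all 10 genes the Cre livers on MCD lie above all Cre livers on chow, while on MCD the genotypes separate without overlap for C5ar1 and Ly6c2 only.

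Trem2 (ENSMUSG00000023992, chr17:48346401-48354147, plus strand, GRCm38) had 0.316 to 0.878 CPM (median 0.519) in the 6 Cre livers on chow, which were 4 to 13 counts, and 13.7, 10.5, 17.0, 18.1 and 11.9 CPM in the 5 Cre livers on MCD. The 5 liver-Flcn-/- livers had 1.55, 0.949, 1.21, 3.19 and 1.67 CPM on chow, and the 6 on MCD had 3.76 to 13.2 CPM (median 4.88). The 4 groups followed the order Cre chow, liver-Flcn-/- chow, liver-Flcn-/- MCD and Cre MCD, and the last pair overlapped through 1 liver-Flcn-/- liver at 13.2 CPM. MCD raised Trem2 25.7-fold in Cre mice (log2 fold change 4.69, SE 0.374, adjusted p = 1.77e-09) and 3.67-fold in liver-Flcn-/- mice (1.88, SE 0.336, adjusted p = 0.000116). Between genotypes it was 3.14-fold higher in liver-Flcn-/- mice on chow (1.65, SE 0.399, adjusted p = 0.0113) and 2.24-fold lower on MCD (-1.16, SE 0.298, adjusted p = 0.00977). The interaction was -2.81 (SE 0.498, adjusted p = 0.00208). In 1 of 33 alternatives the call between genotypes on MCD was lost (adjusted p = 0.127), with log2 fold changes from -1.59 to -1.02. For the interaction 1 of 32 alternatives lost the call (adjusted p = 0.151), with values from -3.41 to -2.37. The difference on chow rests on few reads and did not pass the test with limma-voom (adjusted p = 0.114), without the 5 chow libraries with few uniquely mapped reads (0.101), without liver-Flcn-/- replicate 4 on chow (0.0655) or in the livers with Xist below 100 CPM (0.3). Tyrobp, the adaptor through which Trem2 signals, rose with MCD in Cre mice (1.04, adjusted p = 8.53e-05), was lower in liver-Flcn-/- mice on MCD (-0.76, adjusted p = 0.00743) and was at 0.07 on chow (adjusted p = 0.87).

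Clec7a (dectin-1, a receptor for fungal glucans that signals through Syk and Card9) had 4.53 to 8.88 CPM (median 6.59) in Cre livers on chow and 55.8, 29.5, 67.4, 67.9 and 48.6 CPM in Cre livers on MCD. Liver-Flcn-/- livers had 7.07, 12.3, 10.8, 6.66 and 11.6 CPM on chow and 9.99 to 35.6 CPM (median 22.6) on MCD. The response to MCD was 8.30-fold in Cre mice (adjusted p = 1.46e-08) and 2.30-fold in the knockout (adjusted p = 0.0013). On MCD Clec7a was 2.42-fold lower in liver-Flcn-/- mice (-1.27, SE 0.263, adjusted p = 0.00207). On MCD only the lowest Cre liver reached into the range of the liver-Flcn-/- livers. Syk was lower in liver-Flcn-/- mice on MCD as well (-0.90, adjusted p = 0.00254). GENCODE M21 lists Clec7a (chr6:129461591-129472779, minus strand) as a polymorphic pseudogene, a class for genes that are coding in some strains.

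C5ar1, the receptor for the complement fragment C5a, had 0.364 to 1.23 CPM (median 0.986) in Cre livers on chow and 5.80, 5.55, 5.01, 6.93 and 4.14 CPM in Cre livers on MCD. The liver-Flcn-/- livers had 0.155, 1.25, 1.14, 0.936 and 1.08 CPM on chow and 1.19 to 2.92 CPM (median 2.21) on MCD. On MCD no liver-Flcn-/- liver reached the lowest Cre liver, and C5ar1 was 2.50-fold lower (-1.32, SE 0.289, adjusted p = 0.00319; exact permutation p = 0.00216, the smallest that 462 splits allow). Groups without overlap in that direction were found for 3.53% of all tested genes. The MCD response was 6.01-fold in Cre mice (adjusted p = 6.16e-07) and 2.36-fold in the knockout (adjusted p = 0.0036), and the difference between these responses did not pass the test (-1.35, SE 0.45, adjusted p = 0.0632). It passed in 5 of 32 alternatives. The call for C5ar1 between genotypes on MCD was lost in 1 of 33 (adjusted p = 0.143), with log2 fold changes from -1.58 to -1.18. Hc, which encodes complement C5, the source of its ligand, fell with MCD in both genotypes (-1.56 in Cre and -1.46 in liver-Flcn-/- mice).

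Itgax (CD11c, the alpha chain of an integrin that pairs with Itgb2) had 0.160 to 1.09 CPM (median 0.543) in Cre livers on chow and 14.4, 7.36, 23.0, 16.6 and 7.98 CPM in Cre livers on MCD. Liver-Flcn-/- livers had 0.855, 1.42, 1.14, 1.98 and 2.15 CPM on chow and 1.78 to 8.0 CPM (median 4.16) on MCD. The largest negative genotype difference among the markers on MCD was that of Itgax, which was 3.09-fold lower in liver-Flcn-/- mice (-1.63, SE 0.35, adjusted p = 0.00283), although the highest liver-Flcn-/- liver lay above the 2 lowest Cre livers. With MCD it rose 21.5-fold in Cre mice, against 2.91-fold in the knockout (interaction -2.88, SE 0.569, adjusted p = 0.00418). Its partner Itgb2 was likewise lower in liver-Flcn-/- mice on MCD (-0.96, adjusted p = 0.00371). Of the stretches of 75 bases in the Itgax transcript, 6.04% also occur in Itgad, so a small part of its reads could belong to either gene.

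Ly6c2, a surface protein of inflammatory monocytes, was the marker with the fewest reads on MCD. It had 0.237 to 0.722 CPM (median 0.425) in Cre livers on chow and 1.73, 1.12, 1.45, 1.11 and 2.05 CPM in Cre livers on MCD. The liver-Flcn-/- livers had 0.233, 0.890, 0.335, 1.49 and 1.29 CPM on chow and 0.476 to 1.08 CPM (median 0.707) on MCD. Ly6c2 rose 3.28-fold with MCD in Cre mice (1.71, SE 0.372, adjusted p = 0.000505), while its log2 fold change was -0.15 in the knockout (SE 0.359, adjusted p = 0.755), and the interaction passed (-1.87, SE 0.518, adjusted p = 0.0283). It did not pass without Cre replicate 1 on MCD (adjusted p = 0.0531), without liver-Flcn-/- replicate 4 (0.0724) or 5 (0.0641) on chow, or with limma-voom (0.0639). Over 32 alternatives the interaction lost its call in 5 and reversed in 1, at 0.10 in the livers with Xist below 100 CPM. In the knockout the response of Ly6c2 to MCD was 1.69 in those livers and -1.02 in livers with Xist above 100 CPM, both called. With Xist below 100 CPM the genotypes were at -0.54 on chow. All liver-Flcn-/- livers on MCD lay below all Cre livers on MCD, but at 10 to 42 counts a liver the edgeR test did not pass (-0.93, SE 0.341, adjusted p = 0.0672; exact permutation p = 0.0108 on log2 CPM, 0.0188 adjusted over 40 tests). Reads of Ly6c2 can be hard to tell from those of its neighbour Ly6c1. The coding sequences of the genes have 393 bases each in GENCODE M21 (GRCm38), differ at 9 of them (97.7% identity), and 21.9% of the 75-base stretches of the Ly6c2 transcript occur in Ly6c1 too. The first 120 coding bases, which hold 6 of the 9 differences, are printed with the differing bases in capitals, to show how few positions separate the genes; they lie within chr15:75110578-75111667 (Ly6c2) and chr15:75047420-75048511 (Ly6c1), minus strand, with introns left out.
Ly6c2: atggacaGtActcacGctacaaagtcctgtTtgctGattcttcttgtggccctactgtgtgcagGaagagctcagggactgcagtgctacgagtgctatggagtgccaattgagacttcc
Ly6c1: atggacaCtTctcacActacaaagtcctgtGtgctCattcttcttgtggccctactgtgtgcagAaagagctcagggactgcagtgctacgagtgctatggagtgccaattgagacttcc
Ly6c1 had 1 to 31 counts a liver in Cre mice on MCD, with the highest value, 1.45 CPM, in the liver with the skeletal muscle RNA, and 2 to 7 counts in liver-Flcn-/- mice on MCD.

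Spp1 (osteopontin), a secreted protein that binds integrins and CD44, was the most abundant marker per length in all 4 groups. It had 30.5 to 61.0 CPM (median 44.4) in Cre livers on chow and 148, 110, 96.3, 103 and 126 CPM in Cre livers on MCD. Liver-Flcn-/- livers had 71.2, 64.7, 103, 93.1 and 180 CPM on chow and 66.1 to 117 CPM (median 90.9) on MCD. Spp1 was thus already above all Cre chow livers in every liver-Flcn-/- chow liver, a 2.31-fold difference (1.21, SE 0.223, adjusted p = 0.00119; exact permutation p = 0.00216), and 4.01% of tested genes were higher without overlap in that comparison. It rose 2.63-fold with MCD in Cre mice (adjusted p = 1.95e-05), had a log2 fold change of -0.16 with MCD in liver-Flcn-/- mice (SE 0.221, adjusted p = 0.575), and on MCD the genotypes were at -0.35 (SE 0.22, adjusted p = 0.303). The interaction was -1.56 (SE 0.313, adjusted p = 0.00467). Of its 75-base stretches 7.47% are shared with the predicted gene Gm42793.

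Lgals3 (galectin-3), a secreted lectin that binds glycans and can act as a ligand of Trem2, had 5.21 to 7.89 CPM (median 6.61) in Cre livers on chow and 87.0, 60.2, 94.4, 128 and 89.1 CPM in Cre livers on MCD. The liver-Flcn-/- livers had 8.24, 6.76, 8.45, 5.67 and 7.91 CPM on chow and 14.4 to 76.2 CPM (median 35.0) on MCD. Chow livers of both genotypes were alike in range, with a log2 fold change of 0.16 (SE 0.32, adjusted p = 0.808), and on MCD Lgals3 was 2.29-fold lower in liver-Flcn-/- mice (-1.20, SE 0.293, adjusted p = 0.007). MCD raised it in both genotypes without overlap (14.4% of tested genes were higher without overlap on MCD in liver-Flcn-/- mice), 13.9-fold in Cre mice (adjusted p = 4.49e-09) and 5.41-fold in the knockout (adjusted p = 3.67e-06), and the difference of these responses missed the threshold (-1.36, SE 0.433, adjusted p = 0.053).

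Cd9 is a tetraspanin, a membrane protein that organises receptors and integrins. It had 14.1 to 24.6 CPM (median 16.6) in Cre livers on chow and 35.9, 32.1, 33.8, 39.0 and 38.0 CPM in Cre livers on MCD, against 22.0, 22.5, 28.8, 37.7 and 29.5 CPM in liver-Flcn-/- livers on chow and 27.2 to 46.1 CPM (median 38.9) on MCD. The genotypes differed on chow, where the knockout had 1.64-fold more Cd9 (0.71, SE 0.162, adjusted p = 0.00707), a call lost without the 5 chow libraries with few uniquely mapped reads (0.69, adjusted p = 0.11) and in the livers with Xist above 100 CPM (0.69, 0.0831). On MCD the genotypes overlapped fully (0.07, SE 0.159, adjusted p = 0.83). The response of Cd9 to MCD was 2.08-fold in Cre mice (adjusted p = 1.08e-05) and 1.33-fold in liver-Flcn-/- mice, where it passed the test narrowly (adjusted p = 0.0416) and did not pass the exact permutation test on log2 CPM (p = 0.0649). That call was lost in 13 of 34 alternatives, among them 8 of the 22 that left out 1 mouse (adjusted p up to 0.116), and the log2 fold change was 0.04 in the livers with Xist above 100 CPM. Cd81, a related tetraspanin that associates with Cd9, was higher in liver-Flcn-/- mice on both diets (0.59, adjusted p = 0.0025, on chow and 0.95, adjusted p = 1.45e-05, on MCD).

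Cd68, a protein of macrophage lysosomes, had 10.1 to 14.2 CPM (median 11.9) in Cre livers on chow and 32.2, 26.5, 37.1, 46.6 and 28.2 CPM in Cre livers on MCD. Liver-Flcn-/- livers had 22.3, 17.4, 16.0, 12.1 and 19.4 CPM on chow and 15.1 to 28.2 CPM (median 19.1) on MCD. In liver-Flcn-/- mice the diets overlapped (log2 fold change 0.24, SE 0.178, adjusted p = 0.285), whereas Cd68 rose 2.79-fold with MCD in Cre mice (adjusted p = 5.3e-07). On MCD it was 1.66-fold lower in liver-Flcn-/- mice (-0.73, SE 0.175, adjusted p = 0.00615) and on chow the genotypes were at 0.51 (SE 0.18, adjusted p = 0.0805).

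**Figure D2:**
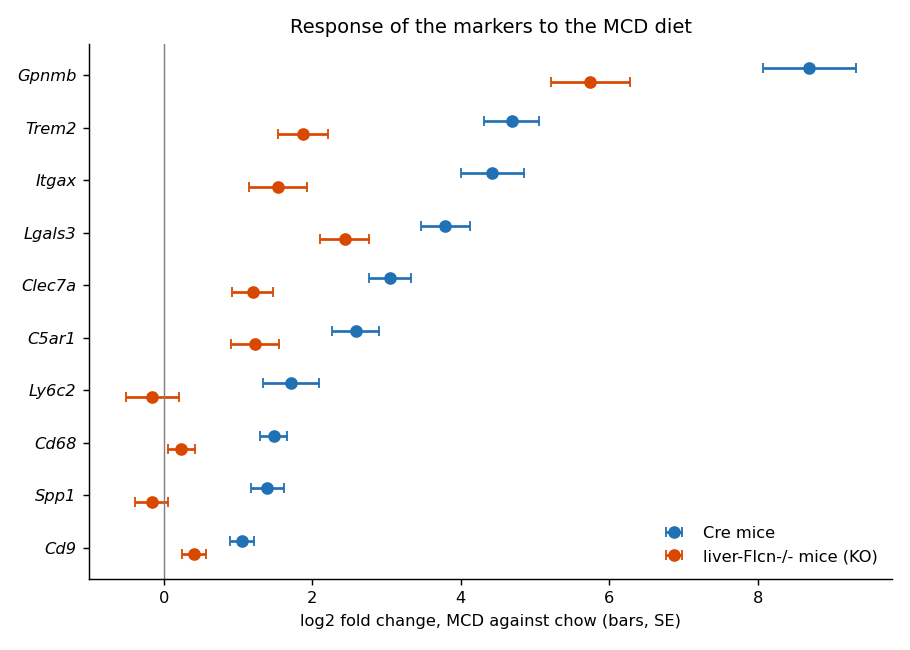
Log2 fold change of each marker for MCD against chow in Cre and liver-Flcn-/- (KO) mice, from edgeR, with bars of 1 SE. All 10 estimates are larger in Cre mice, from 8.70 against 5.75 for Gpnmb to 1.06 against 0.41 for Cd9.

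Gpnmb, a transmembrane glycoprotein of macrophages and a TFE3 and TFEB target, was higher in the knockout on chow and did not separate the genotypes on MCD, which also held for Cd9 and Spp1. It had 0.079 to 0.676 CPM (median 0.273, 1 to 10 counts) in Cre livers on chow and 107, 47.8, 262, 152 and 73.7 CPM in Cre livers on MCD. The liver-Flcn-/- livers had 0.466, 1.60, 2.55, 4.08 and 3.71 CPM on chow, which were 6 to 74 counts, and 55.1 to 260 CPM (median 126) on MCD. MCD raised it by the largest fold among the markers in both genotypes, 415-fold in Cre mice (8.70, SE 0.626, adjusted p = 3.89e-10) and 53.7-fold in liver-Flcn-/- mice (5.75, SE 0.532, adjusted p = 3.22e-08). On MCD the genotypes overlapped fully, with a log2 fold change of 0.09 (SE 0.402, adjusted p = 0.915; exact permutation p = 0.753). The interaction for Gpnmb was -2.95, a call lost in 6 of 32 alternatives (adjusted p up to 0.398).

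On chow, apart from the diet, Gpnmb was 8.23-fold higher in the knockout (3.04, SE 0.705, adjusted p = 0.00816; exact permutation p = 0.00433). Of the 5 liver-Flcn-/- livers 4 lay above all Cre livers, and 1 at 0.466 CPM lay below the highest Cre liver. This was the largest genotype difference on chow among the markers, and it rests on few reads: it did not pass the test with limma-voom (2.88, adjusted p = 0.218), without the 5 chow libraries with few uniquely mapped reads (3.66, adjusted p = 0.0644) or in the 5 chow livers with Xist below 100 CPM (2.07, adjusted p = 0.302). Even the highest chow level, 4.08 CPM, was below the lowest MCD level of 47.8 CPM. On the same diet 9 of 24 other TFE3 and TFEB targets were higher in liver-Flcn-/- mice and 1, Flcn itself, was lower, led by Rragd (3.91, adjusted p = 7.77e-10), the stress-induced regulator Nupr1 (3.35, adjusted p = 2.23e-05) and the lysosomal enzyme subunit Hexa (1.23, adjusted p = 9.5e-07). On MCD 16 of these 24 were higher and none was lower, led by Rragd (3.18), Depp1 (1.47) and Ctsa (1.35). None of the 16 genes of a list of pan-macrophage and myeloid genes passed the test on chow in either direction, 14 of them with positive log2 fold changes (median 0.16). Other macrophage genes did pass on chow. Of 20 other genes of lipid-associated macrophages 8 were higher in the knockout, and of 16 other monocyte genes 1 was, the chemokine receptor Cx3cr1, with 0.247 to 0.743 CPM in Cre livers and 2.64, 2.25, 1.21, 10.5 and 3.34 CPM in liver-Flcn-/- livers (3.03, adjusted p = 0.000185). How much of the Gpnmb difference on chow belongs to macrophages or to hepatocytes cannot be told apart in whole liver.

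The level of Gpnmb relative to Trem2 differed between the genotypes on MCD. The ratio of their CPM was 7.81, 4.55, 15.4, 8.41 and 6.18 in Cre livers on MCD and 12.6 to 47.4 in liver-Flcn-/- livers on MCD, with an overlap between 12.6 and 15.4. On log2 CPM the ratio was 1.43 higher in liver-Flcn-/- mice on MCD (exact permutation p = 0.013, adjusted over 18 tests 0.026), and it was also higher relative to Lgals3 (1.55), Itgax (1.79), Clec7a (1.49) and C5ar1 (1.48), each with an adjusted p of at most 0.026. Relative to Cd68 (0.90, adjusted p = 0.0659), Ly6c2 (1.02, 0.0804), Spp1 (0.53, 0.346) and Cd9 (0.12, 0.814) the ratio did not pass on MCD. On chow Gpnmb was higher in liver-Flcn-/- mice relative to 7 of the 9 other markers, at an adjusted p of at most 0.0325, and did not pass relative to Trem2 (1.07, adjusted p = 0.0668) and Itgax (1.28, 0.0804). These ratio tests were added after the values were seen.

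**Figure D3:**
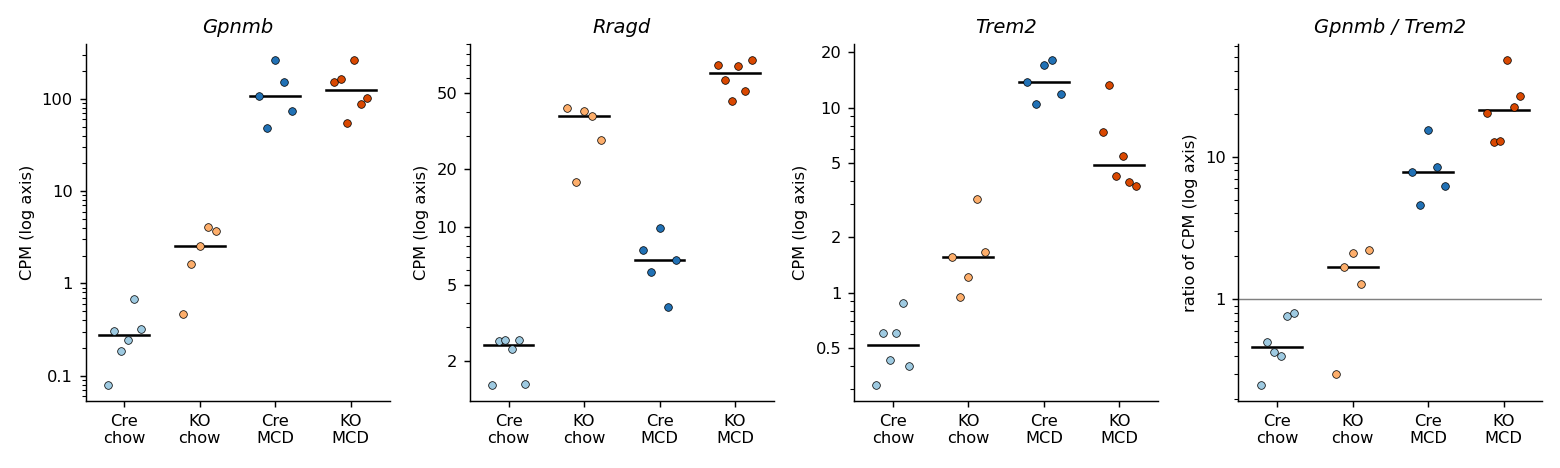
CPM of Gpnmb, of the TFE3 and TFEB target Rragd and of Trem2, and the ratio of Gpnmb to Trem2, in each liver (log axes), where KO stands for liver-Flcn-/- mice and the line is the group median. Rragd separates the genotypes on both diets, Gpnmb overlaps between them on MCD, and the Gpnmb to Trem2 ratio is 4.55 to 15.4 in Cre and 12.6 to 47.4 in liver-Flcn-/- livers on MCD.

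**Figure D4:**
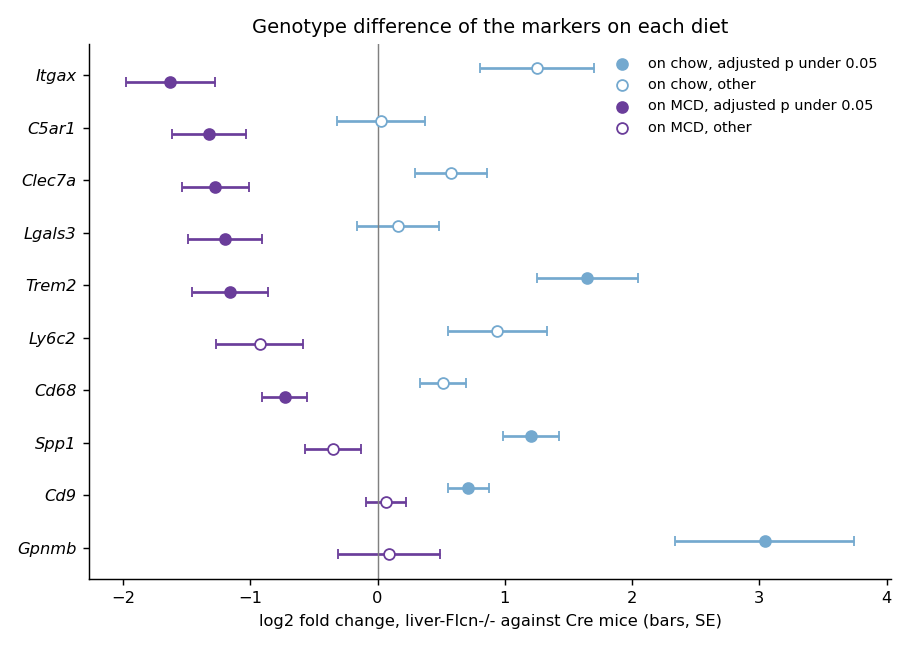
Log2 fold change of each marker for liver-Flcn-/- against Cre mice on chow and on MCD, from edgeR, with bars of 1 SE and filled points for an adjusted p under 0.05. All 10 estimates on chow are above 0, and on MCD 8 of 10 are below 0, with Gpnmb at 0.09 and Cd9 at 0.07.

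Per length, as mean CPM per kilobase of the longest coding transcript, the markers were ordered in Cre livers on chow as Spp1 (29.5 ± 6.71, SD, n = 6), Cd9 (14 ± 3.12), Cd68 (9.91 ± 1.34), Lgals3 (4.64 ± 0.746), Clec7a (2.84 ± 0.669), Ly6c2 (0.548 ± 0.207), Trem2 (0.496 ± 0.186), C5ar1 (0.36 ± 0.122), Itgax (0.154 ± 0.0829) and Gpnmb (0.0814 ± 0.055). Ly6c2, Trem2 and C5ar1, and likewise Itgax and Gpnmb, differed from their neighbours in this order by less than the larger of the SDs. In Cre livers on MCD the order was Spp1 (77.5 ± 13.6, SD, n = 5), Lgals3 (64.7 ± 17.2), Gpnmb (34.7 ± 22.7), Cd9 (29.1 ± 2.34), Cd68 (27.7 ± 6.58) and Clec7a (23.7 ± 6.96), followed by Trem2 (13.1 ± 2.97), Itgax (3.43 ± 1.60), C5ar1 (2.16 ± 0.404) and Ly6c2 (1.81 ± 0.489). Spp1 and Lgals3, the genes from Gpnmb to Clec7a, and those from Itgax to Ly6c2 differed from their neighbours by less than the larger of the SDs. Gpnmb therefore moved from the last place on chow to the third on MCD. In liver-Flcn-/- livers it was eighth on chow (0.67 ± 0.403, SD, n = 5), between Ly6c2 (1.03 ± 0.679) and Itgax (0.373 ± 0.136), and on MCD it was second (37.0 ± 19.7, SD, n = 6) after Spp1 (60.7 ± 14), with Cd9 (30.5 ± 6.41) and Lgals3 (28.2 ± 16.7) within its spread. Of the summed CPM of the 10 markers, Gpnmb made up 0.336% in Cre livers on chow, 1.44% in liver-Flcn-/- livers on chow, 25.9% in Cre livers on MCD and 37.8% in liver-Flcn-/- livers on MCD.

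Other gene lists of the same cells moved with the markers on MCD to different degrees. Of 16 other monocyte and infiltrating macrophage genes, 12 rose with MCD in Cre mice, 3 in liver-Flcn-/- mice, 1 was higher in liver-Flcn-/- mice on chow, and 11 were lower in liver-Flcn-/- mice on MCD, with a median of -0.78. Among them the chitinase-like Chil3 rose 5.99 on the log2 scale in Cre mice and was lower by 2.11 in liver-Flcn-/- mice on MCD (adjusted p = 0.00105), as was Itgam (-1.16, adjusted p = 0.00684), the integrin chain CD11b. Ccr2, the receptor through which monocytes follow Ccl2, rose with MCD in Cre mice (2.08) and was at -0.68 between genotypes on MCD (adjusted p = 0.0923). The summed CPM of this list is carried by Hp, a hepatocyte product, at a mean of 3096 of 3220 CPM in Cre livers on chow. Of 16 pan-macrophage and myeloid genes, 10 rose with MCD in Cre mice and 6 were lower in liver-Flcn-/- mice on MCD, among them Spi1 (-0.87), the transcription factor PU.1, Laptm5 (-0.86) and the lysosomal protease Ctss (-0.79). Without the Cre liver with the skeletal muscle RNA, 13 of the other monocyte genes rose in Cre mice and 10 were lower in liver-Flcn-/- mice on MCD. Of the pan-macrophage list 8 then rose and 8 were lower. The macrophage genes Adgre1 (F4/80) and Csf1r had log2 fold changes of 0.00 and 0.04 with MCD in Cre mice (adjusted p = 0.994 and 0.842) and of -0.40 and -0.38 between genotypes on MCD (adjusted p = 0.124 and 0.109). Both fell with MCD in the knockout (-0.56, adjusted p = 0.0138, and -0.54, adjusted p = 0.00923), as did Mpeg1 (-0.90, adjusted p = 0.00534), the most abundant gene of the list over the 22 livers, although Ctss was above it on MCD.

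**Figure D5:**
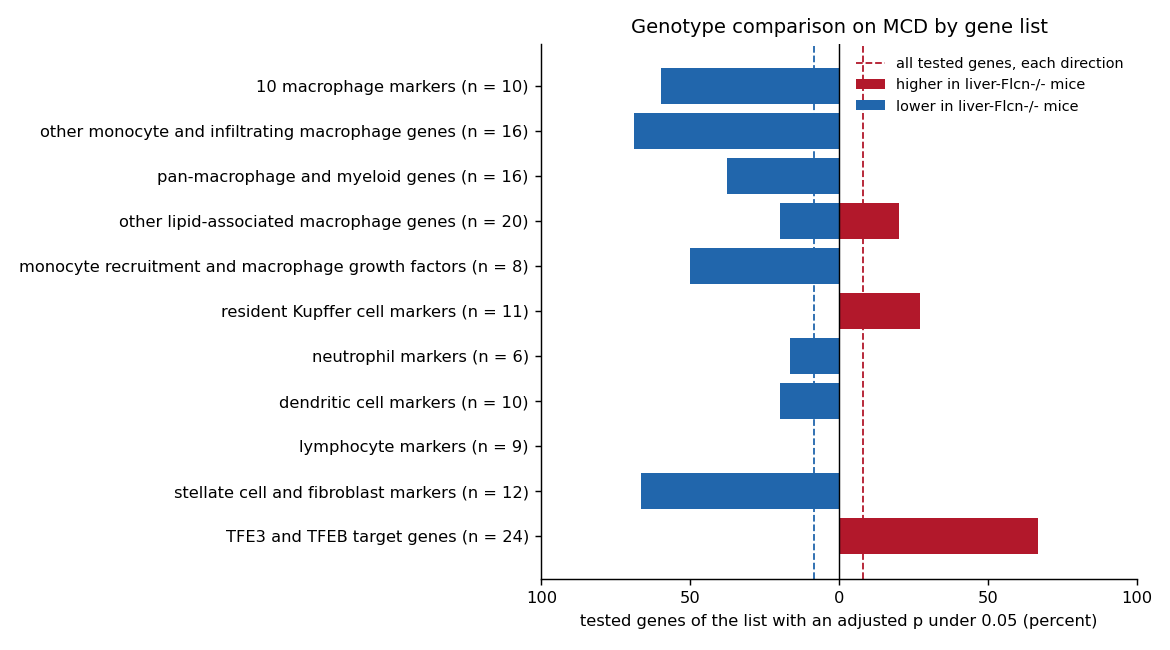
Share of the tested genes of each list with an adjusted p under 0.05 from edgeR for liver-Flcn-/- against Cre mice on MCD, to the right for higher and to the left for lower in liver-Flcn-/- mice, with dashed lines at the shares of all tested genes (8.06% and 8.53%). Lower calls lead among the 10 markers (6 of 10), the other monocyte genes (11 of 16) and the stellate cell genes (8 of 12), and higher calls among the TFE3 and TFEB targets (16 of 24).

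Set against the summed CPM of the pan-macrophage list, the markers differed among themselves. The list's own sum was lower in liver-Flcn-/- mice on MCD by 0.59 on the log2 scale (exact permutation p = 0.0173) and was 0.27 higher on chow (p = 0.0844). Relative to it, on MCD, Clec7a (-0.74) and C5ar1 (-0.73) were lower and Cd9 (0.63) was higher in liver-Flcn-/- mice, each with an adjusted p of 0.0433 over 20 exact permutation tests. Itgax (-1.04) and Trem2 (-0.68) had an adjusted p of 0.0505 each and Lgals3 (-0.79) of 0.0529. Cd68 was at -0.14 (adjusted p = 0.173), Ly6c2 at -0.27 (0.365), Spp1 at 0.22 (0.39) and Gpnmb at 0.75 (0.173). On chow no marker passed in this comparison, and the smallest adjusted p was 0.0505, for Gpnmb (2.23). These tests were added after the values were seen as well.

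Of 20 other genes of lipid-associated macrophages, 18 rose with MCD in Cre mice and 17 did so in the knockout. Between genotypes 8 were higher in liver-Flcn-/- mice on chow, and on MCD 4 were higher and 4 lower, with a median of 0.00. The elastase Mmp12 followed the pattern of Trem2: it rose 7.97 on the log2 scale with MCD in Cre mice and by 4.26 in the knockout, was higher by 1.91 on chow in the knockout (adjusted p = 0.0383) and there lower by 1.80 on MCD (adjusted p = 0.00102). The actin regulator Capg was lower on MCD too (-1.39, adjusted p = 0.000265). Cd63, a tetraspanin of lysosomes, went the other way and was higher in liver-Flcn-/- mice on both diets, with 2.68 to 5.89 CPM in Cre and 21.9 to 74.1 CPM in liver-Flcn-/- livers on chow (higher by 3.67, adjusted p = 1.71e-07) and by 1.5 on MCD (adjusted p = 0.00158). The list's most abundant gene, the lysosomal protease Ctsl, which hepatocytes express as well, was higher in liver-Flcn-/- mice on MCD (0.95, adjusted p = 0.000826).

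The genes of resident Kupffer cells showed no common direction between genotypes on MCD. Of 11 such genes 4 had positive and 7 had negative log2 fold changes (median -0.12), none was called lower, and 3 were called higher in liver-Flcn-/- mice, namely the iron exporter Slc40a1 (0.98), Timd4 (0.94), a receptor for phosphatidylserine, and Cd163 (0.89), the haemoglobin scavenger receptor, which was not called without the liver with the skeletal muscle RNA. Clec4f, a lectin particular to Kupffer cells, fell with MCD in both genotypes (-0.77, adjusted p = 0.00616, in Cre and -0.74, adjusted p = 0.00939, in liver-Flcn-/- mice), and its genotype difference on MCD was 0.19 (adjusted p = 0.634). The summed CPM of the list was 570 ± 153 (SD, n = 5) in Cre and 680 ± 105 (SD, n = 6) in liver-Flcn-/- mice on MCD, led by Cd5l in Cre (166 CPM, with Slc40a1 at 155 CPM) and by Slc40a1 in liver-Flcn-/- mice (305 CPM). Without Slc40a1 the order of the means was the other way, at 415 ± 134 in Cre and 375 ± 103 in the knockout. On chow 2 of the 11, Marco (2.01) and Il18bp (0.45), were higher in liver-Flcn-/- mice.

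Markers of other cell types also moved with the comparison of genotypes on MCD, and their part in the marker values was not tested. Of 12 stellate cell and fibroblast genes 8 were lower in liver-Flcn-/- mice, among them Des (-2.73), Acta2 (-2.07) and Col1a1 (-1.76), and their summed CPM on MCD, led by Dcn, was 692 ± 160 in Cre livers (SD, n = 5) against 463 ± 48.4 in liver-Flcn-/- livers (SD, n = 6). The Cre liver with the skeletal muscle RNA had the highest sum (932 CPM) and 146 CPM of Des, against 5.99 to 15.3 CPM in the other Cre livers on MCD. Without it 5 of the 12 were lower, with Des at -0.68 (adjusted p = 0.0736), Acta2 at -1.65 (0.0382) and Col1a1 at -1.62 (0.00794). All 12 skeletal muscle genes were lower, of which 2 were called without that liver, with sums of 1.28 to 3427 CPM in Cre livers and 1.10 to 76.7 CPM in liver-Flcn-/- livers. Of 6 tested neutrophil genes only Csf3r (-0.84) was lower, and 2 of 10 dendritic cell genes, Siglech (-1.31) and Clec10a (-1.46), were lower, while no lymphocyte gene of 9 passed in either direction. Of 11 tested bile duct genes, 5 had positive and 6 had negative log2 fold changes (median -0.50). Of these 3 were called higher, among them Sox9 (0.71) and Cftr (2.01), and none was called lower. Krt19 was at -0.86 (adjusted p = 0.355). Bile duct genes are given because bile duct cells also make Spp1 and Cd9. Without the liver with the skeletal muscle RNA, Siglech and Sox9 were not called, while 2 of the 6 neutrophil genes were lower. Of 11 endothelial genes only Stab2 (0.62) was higher, and of 9 hepatocyte genes none passed.

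Among signals that recruit monocytes or sustain macrophages, 8 of 12 genes had enough reads, and all 8 rose with MCD in Cre mice, while in the knockout 4 of them rose and 1 fell. The monocyte chemokine Ccl2 had 0.241 to 1.03 CPM in Cre livers on chow and 2.54 to 10.1 CPM in Cre livers on MCD (3.32, adjusted p = 2.64e-07), against 1.35 to 4.87 CPM in liver-Flcn-/- livers on MCD. On MCD 4 of the 8 were lower in liver-Flcn-/- mice, namely Ccl2 (-0.99, adjusted p = 0.0417), the Csf1r ligands Il34 (-0.85, adjusted p = 0.00633) and Csf1 (-0.62, adjusted p = 0.0159), and the adhesion molecule Icam1 (-0.48, adjusted p = 0.0336). The call for Ccl2 was lost in 10 of 33 alternatives, among them 6 of the 22 that left out 1 mouse, where its adjusted p reached 0.139. Of 20 receptor and ligand partners of the markers, 6 were lower and 1, Cd81, was higher in liver-Flcn-/- mice on MCD, with a median of -0.29. The most abundant of them, Apoe, a ligand of Trem2, was at 0.13 on MCD (adjusted p = 0.541) and 0.19 on chow (adjusted p = 0.373).

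Because the markers rose together with MCD in Cre mice, their promoters were read from RefSeq (GRCm38.p6), 250 bases before to 50 after each start site, and searched on both strands for the E-boxes CACGTG and CATGTG bound by TFE3 and TFEB, the AP-1 motif TGANTCA and the PU.1 motif GAGGAAGT. All 10 markers had a promoter in the table, with 13 start sites. The shares of all 32851 promoters with a match were 7.15% for CACGTG, 14.2% for CATGTG, 7.81% for TGANTCA and 3.20% for GAGGAAGT. These shares count single windows, whereas a marker was counted if any of its start sites had a match. The AP-1 motif occurred in 4 of the 10 markers, at -9 in Trem2, at 9 in Gpnmb, at -56 in Itgax, and at -149 and -24 in Cd68, counted from the start site to the first base of the match. GAGGAAGT occurred in Spp1 (-113) and in Ly6c2 (-108 and 27 from its first start site). The windows of the start sites of Ly6c2 overlap, and both hold these same matches. CATGTG occurred in Cd9 (-38), and CACGTG in none of the markers, including Gpnmb, whose window also has no CATGTG. The 4 promoters with the AP-1 motif are printed from 160 bases before to 20 after the start site, with the motif in capitals, at chr17:48346241-48346420 (Trem2, plus strand), chr6:49036358-49036537 (Gpnmb, plus strand), chr7:128129390-128129569 (Itgax, plus strand) and chr11:69666151-69666330 (Cd68, minus strand). A match describes the letters only, and binding was not measured.
Trem2: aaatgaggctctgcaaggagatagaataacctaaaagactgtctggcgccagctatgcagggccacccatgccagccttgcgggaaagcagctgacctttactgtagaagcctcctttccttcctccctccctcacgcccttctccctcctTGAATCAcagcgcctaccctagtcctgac
Gpnmb: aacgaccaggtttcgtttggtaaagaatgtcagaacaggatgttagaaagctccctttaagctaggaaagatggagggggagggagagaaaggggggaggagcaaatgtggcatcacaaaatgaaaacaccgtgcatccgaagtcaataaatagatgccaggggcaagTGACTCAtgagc
Itgax: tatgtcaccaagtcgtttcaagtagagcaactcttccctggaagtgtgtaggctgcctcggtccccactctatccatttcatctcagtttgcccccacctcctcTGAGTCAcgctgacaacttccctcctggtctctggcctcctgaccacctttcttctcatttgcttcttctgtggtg
Cd68: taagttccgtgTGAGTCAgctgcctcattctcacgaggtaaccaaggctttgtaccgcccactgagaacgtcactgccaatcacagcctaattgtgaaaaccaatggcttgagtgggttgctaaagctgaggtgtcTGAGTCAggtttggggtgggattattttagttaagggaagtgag

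Within the groups, after removal of the group means, log2 CPM over the 22 livers placed other genes closest to Gpnmb, Trem2 and Spp1, as a description of livers that share depth and composition. For Gpnmb these were Chsy1 (Pearson r = 0.81), Slco3a1 (0.77), Ccp110 (0.76), Myo5a (0.76) and Cygb (0.76). For Trem2 they were Mfge8 (0.83), Ms4a7 (0.75), Plk2 (0.74), Mrc2 (0.73) and Fxyd5 (0.73), of which Ms4a7 is in the list of other monocyte genes. For Spp1 they were Cdh6 (0.83), Tesc (0.76), Spint1 (0.75), Scara3 (0.75) and Epcam (0.73), the last a bile duct marker. Among the markers themselves the closest pair was Clec7a and Lgals3 (0.83), followed by Cd68 and Lgals3 (0.79) and Clec7a and Itgax (0.73), while Gpnmb and Trem2 had 0.58 and Cd68 and Ly6c2 -0.18.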

How the data were processed

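RNA was sequenced from 22 mouse livers, and the authors deposited 1 table of raw counts per gene, made with Trimmomatic, STAR and HTSeq on GRCm38 as the study's methods and submitters' notes name them. Tool versions, annotation release and strand setting are not given in the sources used here, and no collapse of molecular identifiers is named, so reads of 1 molecule may be counted more than once. Library totals were 15276157 to 19417246 counts (Cre chow), 18201287 to 21144388 (Cre MCD), 13751347 to 19645473 (liver-Flcn-/- chow) and 16616132 to 20706657 (liver-Flcn-/- MCD). Labels number different mice, and p-values measure the spread between these mice. None of the 50 pairs of libraries within groups was identical.

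Genes with a mean of at least 10 counts (14062) were fitted over all 4 groups with TMM scaling. The test was the quasi-likelihood test of edgeR 4.0.16 (R 4.3.3). Its p-values were adjusted over all these genes by the Benjamini-Hochberg method with a threshold of 0.05. CPM used the TMM library sizes, and log2 CPM was taken with a prior count of 2. Exact permutation tests (two-sided, of log2 CPM) covered 462 splits each, with a smallest p of 0.00216, and 40 of them were adjusted together. Simulated data with 200 of 14062 genes changed returned, of genes changed 2-fold and 4-fold, 71% and 94% for MCD in Cre mice, 69% and 94% for MCD in liver-Flcn-/- mice, 71% and 94% for genotype on chow, 68% and 97% for genotype on MCD and 49% and 85% for the interaction. Alternatives were DESeq2 1.42.0, limma-voom (limma 3.58.1), filters, unscaled library sizes, a replicate block and omitted libraries. Python used numpy 2.4.6, pandas 2.3.3, scipy 1.17.1 and matplotlib 3.10.9. Positions and transcripts came from GENCODE M21, in which 179 genes of the table had no position.

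The markers and gene lists were chosen with earlier results of these data known, and the lists share genes: Ctsd is both a lipid-associated macrophage gene and a TFE3 and TFEB target, and Tyrobp is in the partner and pan-macrophage lists. Genes were named by a fixed rule: all markers, Flcn, Ly6c1, per list the 3 largest changes that passed in genes averaging 1 CPM or more, plus the most abundant gene, Tyrobp, Csf1r, Adgre1, Clec4f, Timd4, Krt19, Rragd, Ccr2 and Ccl2, and the 5 genes most like Gpnmb, Trem2 and Spp1. Clec10a, Cftr, Xist and, for genotype on MCD, Icam1 fall outside it and were named after their values were seen. Sequencing reads, histology and other assays were not analysed here. A gene of the bile duct list is not reported here.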

Additional observations from a re-analysis of the deposited data

Results flagged for a closer look

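The response to MCD differed between genotypes, by the interaction term of edgeR, for 7 markers. The interaction log2 fold changes were -2.95 for Gpnmb, -2.88 for Itgax, -2.81 for Trem2, -1.87 for Ly6c2, -1.85 for Clec7a, -1.56 for Spp1 and -1.24 for Cd68, each negative, so that the response was smaller in liver-Flcn-/- mice. Of 32 alternatives 6 lost the call for Gpnmb (adjusted p up to 0.398). For Ly6c2 5 of 32 lost it and 1 reversed the direction. In 1 Cre liver on chow (replicate 4) Cd9 was at 24.6 CPM, far from the other livers of its group by Dixon's criterion. In 1 liver-Flcn-/- liver on chow (replicate 1) C5ar1 was at 0.155 CPM, far below the other livers of its group. Chance gives such a library in about 1 in 20 groups, and 40 groups of values were examined.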

How the results depend on the processing

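Of 1665 alternative log2 fold changes of the 10 markers, 1575 kept direction and side of the threshold, 42 lost and 24 gained a call, and 24 reversed. The markers called for MCD in Cre mice, MCD in liver-Flcn-/- mice, genotype on chow, genotype on MCD and the interaction were 10, 7, 4, 6 and 7. Where every library had to reach 10 counts, 5 markers could be tested and the counts were 5, 3, 2, 3 and 3. On chow 2 markers were called with limma-voom and 2 without the 5 libraries with a low uniquely mapped share. The cause of these changes was not tested. Leaving out each library in turn gave 10 to 10, 6 to 7, 3 to 4, 6 to 7 and 5 to 8 markers, and 2.79 to 3.44 for Gpnmb on chow. With livers split by Xist, chosen after seeing the data, 4 markers were called for MCD in liver-Flcn-/- mice above 100 CPM, and 2 on chow and 2 for the interaction below it. Gpnmb on chow did not pass with limma-voom (2.88), without the 5 libraries (3.66) or below 100 CPM of Xist (2.07), and its interaction did not pass with limma-voom (-2.72), without the 5 libraries (-3.56), or without liver-Flcn-/- chow replicate 4 (-2.70) or 5 (-2.76). In all, 6 of 32 alternatives lost the call of the Gpnmb interaction. Its values lay between -3.56 and -2.19, with an adjusted p of up to 0.398. The highest counts under any alternative were 10, 8, 5, 7 and 10, the last with DESeq2. With the replicate block the counts were 10, 7, 4, 6 and 5, and the Gpnmb interaction was -2.69 (adjusted p = 0.0845). After removal of group means, the mean correlation of libraries with the same number was -0.0842 to 0.129, depending on the pair of groups. Single values ran from -0.551 to 0.470 between genotypes on chow, and from 0.0621 to 0.262 between genotypes on MCD. Libraries with different numbers were not compared, so these values cannot decide whether the numbers pair the mice.

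Reversed values were these. Gpnmb between genotypes on MCD was -0.12, -0.06 and -0.20 without Cre replicate 2, Cre replicate 5 or liver-Flcn-/- replicate 4 (range -0.20 to 0.52), and -0.12 with Xist below 100 CPM. Spp1 for MCD in liver-Flcn-/- mice was 0.14 without chow replicate 5 (range -0.29 to 0.14) and 0.29 with low Xist, and between genotypes on MCD 0.11 with low Xist. Cd9 between genotypes on MCD was -0.0016 without liver-Flcn-/- replicate 4 and -0.20 with high Xist. Lgals3 on chow was -0.15 without the 5 libraries and -0.15 with high Xist. Ly6c2 for MCD in liver-Flcn-/- mice was 0.037 with limma-voom, 0.14 and 0.04 without chow replicates 4 and 5 (range -0.37 to 0.14 over omitted libraries), and 1.69 with low Xist against -1.02 with high Xist, both called (adjusted p = 0.0458 and 0.0249). With low Xist it was -0.54 on chow and 0.10 for the interaction. C5ar1 on chow was -0.077 with limma-voom, -0.14, -0.01, -0.10, -0.05 and -0.03 without single libraries (range -0.14 to 0.27), and -0.59 with low Xist.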

Other observations

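Among the 11 MCD livers, a term for Xist below 100 CPM was fitted beside genotype with edgeR after the values were seen. Gpnmb was at 1.34 on the log2 scale in the livers with low Xist (SE 0.237, adjusted p = 0.064), Lgals3 at 1.08 (adjusted p = 0.143), Itgax at 1.05 (0.157), Trem2 at 0.86 (0.169) and Cd68 at 0.58 (0.0885). No marker passed the threshold, and 17 of 14062 genes did (0.121%), 7 of them higher and 10 lower. At an unadjusted p under 0.05 there were 8 markers, all higher with low Xist, against 8.16% of all tested genes (5.83% higher). The muscle gene Myh4 was at 7.48 (adjusted p = 0.037), and the Cre livers with low Xist are the pair with the highest skeletal muscle sums. Mmp12 was at 1.09 (SE 0.26, adjusted p = 0.169).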
